A study of Saccharomyces cerevisiae with 12 samples.

Results

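Untreated Mot1-FRB cells were compared with untreated NCB2-FRB cells of budding yeast (Saccharomyces cerevisiae), that is, a pair of tagged strains to which no rapamycin was given. The samples were chosen by their titles and comprise 4 of the 12 two-colour microarrays of the series, 2 for each strain. Mot1-FRB is strain YGP200 and carries an FRB tag on Mot1. NCB2-FRB is strain YGP201 and carries the tag on NC2β, the product of NCB2. The untagged wild type is HHY168, and the values of its 2 untreated arrays are given after those of the tagged strains. FRB, taken from the Tor kinase, binds rapamycin, and the strains belong to the anchor-away system, in which rapamycin joins an FRB-tagged protein to an anchor protein that leaves the nucleus. None of these 6 cultures received rapamycin. Cells grew in Complete Synthetic Medium with 2% glucose, and the 2 cultures of a strain (a and b) came from independent colonies. Each tagged genotype is represented by 1 named strain, so the effect of a tag and any other difference between YGP200 and YGP201 cannot be told apart.

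Mot1 is an ATPase that removes TBP, the TATA-binding protein made from SPT15, from DNA. NC2 is a dimer of NC2α (BUR6) and NC2β (NCB2) that binds TBP on the promoter and blocks the entry of the next initiation factors. Both are known as regulators of TBP that repress some promoters and help others, and both are essential in yeast.

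On each array, cRNA of 1 culture was hybridised against a common reference made from untreated wild-type cells, with cultures a labelled with Cy3 and cultures b with Cy5. Values are log2(culture/reference), so that 0 equals the reference, and a difference is Mot1-FRB minus NCB2-FRB on that scale. The median signal over background was 10.9 to 21.6 on the 4 arrays, and 99% to 99.5% of the probes were above the blank spots. Differences carry the SE of the limma fit (2 arrays per group), and p-values were adjusted by Benjamini-Hochberg over all 6388 gene probes. A gene is called higher or lower where its adjusted p was under 0.05. The number of arrays limits the precision, and the median SE of a difference was 0.0620.

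Transcript levels of 122 of the 6388 probes differed between the untreated strains, or 1.91% of those tested, and 14.4% had an unadjusted p under 0.05. Of these, 101 were higher in Mot1-FRB (1.58% of all probes) and 21 were lower (0.329%). Most differences were small, with a median size of 0.36 on the log2 scale: 16 genes were at least 1.5-fold higher and 1, SNO1, was at least 1.5-fold lower. A total of 3 genes exceeded a 2-fold difference, namely HSP26, YIR042C and NCB2, all higher in Mot1-FRB. The median difference of all probes was -0.0045, and the medians of the 16 nuclear chromosomes ran from -0.02 to 0.01. The arrays of the strains did not overlap for any of the 122 genes, which also held for 48.8% of all probes.

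**Figure D1:**
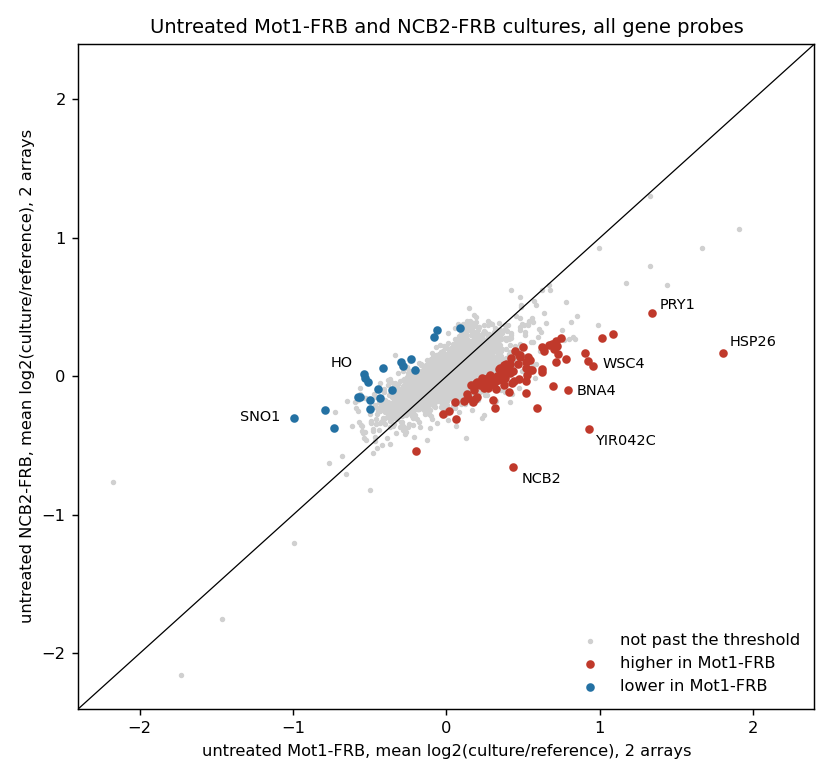
Mean log2(culture/reference) of untreated Mot1-FRB (horizontal axis) and untreated NCB2-FRB (vertical axis) for 6388 gene probes, 2 arrays each, with the line of equality. Genes past the threshold are coloured; 101 lie below the line (higher in Mot1-FRB) and 21 above it (lower in Mot1-FRB).

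The number of calls depended on single arrays and on how the intensities were processed. Without untreated Mot1-FRB culture a, 30 genes were called, without culture b 28, without untreated NCB2-FRB culture a 49 and without culture b 38. In those 4 runs 1 strain was left with 1 array, whose spread was assumed to be like that of the other groups. There were 19 genes called in all 4 runs: NCB2, MOT1, YIR042C, BNA4, WSC4, YLR112W, PUT1, CAR2, AGP1, RPI1, HUG1, BDF2, CAR1, YLR225C, TAH1, MEP3 and a probe without a symbol were higher, and ALT2 and HO were lower. Each of the other 103 genes lost its call in at least 1 of them. From the scanner intensities, 44 genes were called after print-tip loess and 11 after global loess. These settings also lacked the authors' correction of gene-specific dye bias. Each group holds 1 array of each dye, so dye bias enters the spread there. After global loess the difference was 1.09 for NCB2 (1.09 in the main fit) and 0.59 for MOT1 (0.57). What lowered the counts was not tested. All 122 genes kept the sign of their difference under every setting that measured them. Leaving out 1 array could not change a sign, because the arrays of the strains did not overlap for these genes. Settings that only changed the fit or the probes kept could not change it either. Only the other normalizations and centrings could have done so.

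Both genes that carry the tags were higher in Mot1-FRB. NCB2 (YDR397C, chromosome IV) had 0.43 and 0.43 in Mot1-FRB, -0.64 and -0.67 in NCB2-FRB, and -0.01 and 0.03 in wild type. The NCB2 transcript was thus above the wild-type arrays in the strain with tagged Mot1 and below them in the strain with tagged NC2β, and no arrays overlapped. Its difference was 1.09 ± 0.05 (2.12-fold higher in Mot1-FRB, adjusted p = 4.5e-06), with an adjusted p of 0.0553 after global loess. MOT1 (YPL082C, chromosome XVI) had 0.74 and 0.72 in Mot1-FRB, 0.20 and 0.12 in NCB2-FRB, and 0.01 and -0.01 in wild type. Its transcript was highest in the strain whose own Mot1 is tagged, with NCB2-FRB slightly above wild type on both arrays. The MOT1 difference was 0.57 ± 0.07 (1.49-fold higher in Mot1-FRB, adjusted p = 0.0038), with an adjusted p of 0.142 after print-tip loess. These are levels of RNA and do not show how much Mot1 or NC2β protein the cells held.

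The partners of the tagged proteins were not called. BUR6, the NC2α subunit, had 0.03 and 0.10 in Mot1-FRB, 0.03 and 0.03 in NCB2-FRB and 0.06 and 0.08 in wild type, a difference of 0.04 ± 0.04 (adjusted p = 0.77). The BUR6 probe was dim, with a mean signal of 58.2 over the 4 arrays. Percentile 95 of the blank spots was 41.6 to 59.7 on these arrays, so the BUR6 values say little about the NC2α transcript. SPT15 (TBP) had 0.17 and 0.03 in Mot1-FRB, 0.05 and 0.00 in NCB2-FRB and 0.03 and -0.13 in wild type, a difference of 0.08 ± 0.07 (adjusted p = 0.71). The arrays of the strains overlapped for SPT15. Of the 28 measured genes of TFIID and the general initiation factors, of 15 SAGA subunits and of 25 Mediator subunits, none was called, with median differences of -0.02, -0.03 and -0.03. Of all probes 1.91% were called, so few or no calls were to be expected in groups of this size. All members of these groups lay between -0.20 and 0.11.

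The paralogous bromodomain genes BDF2 and BDF1 were higher in Mot1-FRB. No list of bromodomain genes was tested, and BDF1 was chosen after its values were seen. Neither gene was called after any normalization of the scanner intensities. BDF2, whose protein binds acetylated histones, had 0.73 and 0.70 in Mot1-FRB, 0.09 and 0.12 in NCB2-FRB and -0.00 and 0.04 in wild type. The Mot1-FRB arrays stood well above the other 4, which lay close together. BDF2 was 0.61 ± 0.06 higher in Mot1-FRB (1.53-fold, adjusted p = 0.00098). Its paralogue BDF1, a TFIID-associated factor, was also called, with 0.39 and 0.27 in Mot1-FRB, 0.02 and -0.02 in NCB2-FRB and -0.07 and -0.11 in wild type (difference 0.33 ± 0.06, adjusted p = 0.0163).

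Genes beside the tagged genes were examined next. SEN54 (YPL083C), which encodes a subunit of the tRNA splicing endonuclease, is the measured neighbour of MOT1 on 1 side. It had -0.47 and -0.55 in Mot1-FRB, -0.03 and -0.05 in NCB2-FRB and 0.06 and -0.11 in wild type. SEN54 was lower in Mot1-FRB than in the other strains on both arrays (difference -0.47 ± 0.07, adjusted p = 0.0106). Near NCB2, the HPT1 gene (YDR399W) encodes hypoxanthine-guanine phosphoribosyltransferase and is the second gene away. HPT1 had 0.60 and 0.65 in Mot1-FRB, 0.13 and 0.29 in NCB2-FRB and 0.29 and 0.34 in wild type. It was higher in Mot1-FRB (0.41 ± 0.06, adjusted p = 0.0060), the strain whose NCB2 is untagged. The Mot1-FRB mean of HPT1 was further from wild type than the NCB2-FRB mean. UTP5, between NCB2 and HPT1, had 0.01 and 0.09 in Mot1-FRB, 0.27 and 0.27 in NCB2-FRB and 0.22 and 0.34 in wild type. Its difference of -0.22 ± 0.05 was not called (adjusted p = 0.0824).

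The remaining nearest genes showed no call. Of the 3 measured genes on each side, 5 of 6 around MOT1 ranged from -0.12 to 0.06, and 5 of 6 around NCB2, UTP5 included, from -0.22 to 0.05. Among 10 genes on each side, the only further calls were YPL088W near MOT1 (0.36 ± 0.08, adjusted p = 0.0460) and MUS81 near NCB2. In total 2 of the 20 genes around each tagged gene were called, against 1.91% of all probes. MUS81, a subunit of a structure-specific DNA endonuclease, had 0.01 and 0.11 in Mot1-FRB, -0.33 and -0.29 in NCB2-FRB and -0.05 and -0.01 in wild type. Here the NCB2-FRB arrays were the ones apart from wild type (difference 0.37 ± 0.05, adjusted p = 0.0050).

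**Figure D2:**
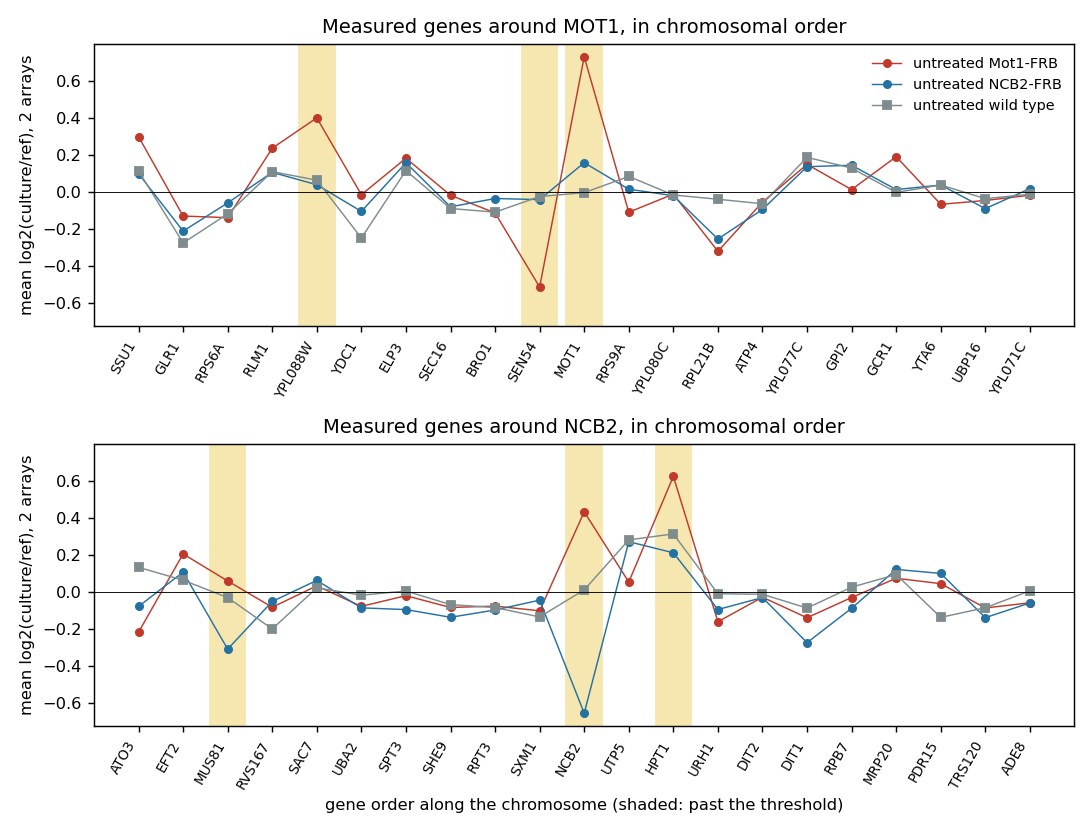
Mean log2(culture/reference) over 2 arrays in untreated Mot1-FRB, NCB2-FRB and wild type for the measured genes around MOT1 (top) and NCB2 (bottom), in chromosomal order; genes past the threshold are shaded. The tagged genes themselves, SEN54, YPL088W, HPT1 and MUS81 stand out, and the other genes of both windows were not called.

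Wild type lay nearer NCB2-FRB for most genes that differed. Of the 122 genes, the wild-type mean was closer to NCB2-FRB for 117 (95.9%), including all 21 lower ones, against 65% of all probes. The median distance of the 122 genes from wild type was 0.40 in Mot1-FRB and 0.07 in NCB2-FRB, against 0.07 and 0.04 for all probes in the same order of strains. The 5 genes with wild type nearer Mot1-FRB were NCB2, MUS81, MDH2 and 2 probes without a symbol. MDH2, the cytosolic malate dehydrogenase of gluconeogenesis, had 0.38 and 0.44 in Mot1-FRB, -0.01 and -0.21 in NCB2-FRB and 0.20 and 0.14 in wild type (difference 0.52 ± 0.09, adjusted p = 0.0180). Without untreated NCB2-FRB culture a, the share nearer NCB2-FRB was 81.63% of the genes then called, and without untreated Mot1-FRB culture a it was 90.0%.

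Stress genes included the highest difference. HSP26, which encodes a small heat shock chaperone, had 1.59 and 2.01 in Mot1-FRB, 0.34 and 0.00 in NCB2-FRB and 0.09 and -0.05 in wild type. Both Mot1-FRB arrays lay far above all others, although the cultures of each tagged strain were themselves spread. HSP26 was 1.63 ± 0.25 higher in Mot1-FRB (3.10-fold, adjusted p = 0.0106), with an adjusted p of 0.121 without untreated Mot1-FRB culture b and 0.101 without untreated NCB2-FRB culture b. DDR2, a stress-induced gene, had 0.49 and 0.70 in Mot1-FRB, -0.25 and -0.22 in NCB2-FRB and -0.07 and -0.18 in wild type (difference 0.82 ± 0.14, adjusted p = 0.0166).

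These were the only called members among the 48 measured genes of the environmental stress list, which are induced through Msn2 and Msn4, or 4.17% higher against 1.58% of all probes. Of the 48, 42 had a difference above 0, and their median was 0.22, against -0.0045 for all probes. MSC1 (0.59 ± 0.16, adjusted p = 0.109), HSP12 (0.58 ± 0.28, adjusted p = 0.38) and YGP1 (0.55 ± 0.13, adjusted p = 0.072) were not called. With only the 4 arrays compared or only the 6 untreated arrays in the fit, 12 members were called higher. Calls over all probes rose too, to 176 and 214 higher in these fits, from 101 in the main fit. Leaving out 1 of the 4 arrays left 0 or 1, with 0 without untreated Mot1-FRB culture b or untreated NCB2-FRB culture b. The median log2(culture/reference) of the list was 0.07 in Mot1-FRB, -0.13 in NCB2-FRB and -0.21 in wild type. Chaperone genes of the heat shock factor Hsf1 had 1 higher member, HSP26, and 1 lower, KAR2 (the ER Hsp70, -0.27 ± 0.06, adjusted p = 0.0460), of 25, and a median of -0.0049. That is 4% in each direction, against 1.58% of all probes higher and 0.329% lower.

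**Figure D3:**
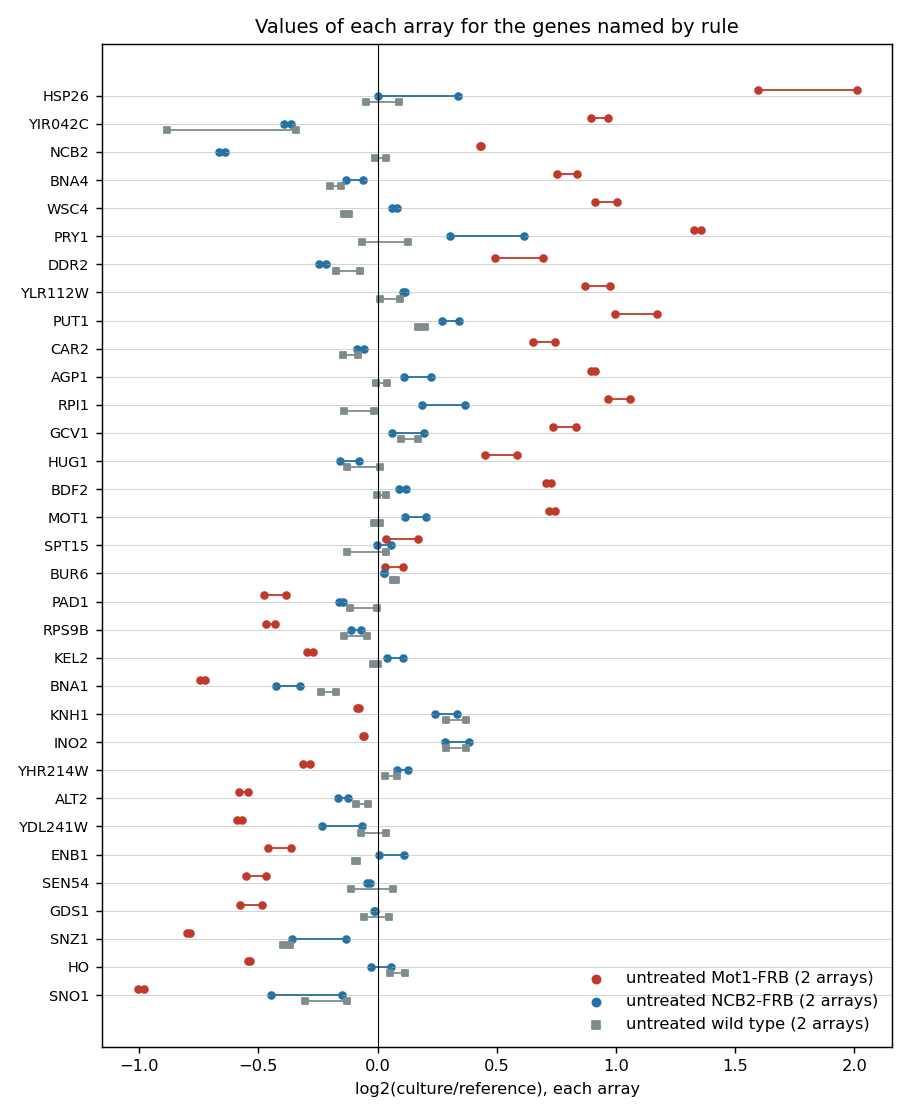
log2(culture/reference) of each untreated array for the 15 highest and 15 lowest named genes and for MOT1, BUR6 and SPT15, in the order of the difference Mot1-FRB minus NCB2-FRB; each line joins the 2 arrays of a strain. From HSP26 down to MOT1 the Mot1-FRB arrays lie to the right of the NCB2-FRB arrays, and from PAD1 down to SNO1 they lie to the left.

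Genes for the use of poorer nitrogen sources were higher in Mot1-FRB in 5 of 28 measured cases, or 17.9% against 1.58% of all probes, and none was lower. The list holds genes under nitrogen catabolite repression, which are shut off when good nitrogen sources are at hand. PUT1 (proline oxidase) had 0.99 and 1.17 in Mot1-FRB, 0.34 and 0.27 in NCB2-FRB and 0.20 and 0.17 in wild type, a difference of 0.78 ± 0.10 (adjusted p = 0.0038). CAR2 (ornithine aminotransferase) had 0.65 and 0.74 in Mot1-FRB, -0.06 and -0.09 in NCB2-FRB and -0.15 and -0.08 in wild type, a difference of 0.77 ± 0.08 (adjusted p = 0.00098). CAR1 (arginase) had 0.63 and 0.61 in Mot1-FRB, -0.03 and 0.09 in NCB2-FRB and -0.06 and -0.14 in wild type, a difference of 0.59 ± 0.06 (adjusted p = 0.00098). For all 3 enzymes of arginine and proline breakdown, the NCB2-FRB and wild-type arrays lay below the Mot1-FRB arrays. For PUT1 and CAR1, both NCB2-FRB arrays were above both wild-type arrays.

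The other called members were permeases. The ammonium permease gene MEP3 was higher by 0.41 ± 0.05 (adjusted p = 0.0025) and UGA4, the GABA permease gene, by 0.36 ± 0.06 (adjusted p = 0.0116). DAL80, a GATA-type repressor of these genes, had 1.42 and 1.45 in Mot1-FRB, 0.71 and 0.60 in NCB2-FRB and 0.74 and 0.45 in wild type, a difference of 0.78 ± 0.19 that was not called (adjusted p = 0.0831). The list's median difference was 0.17, and 23 of 28 members were above 0. With only the 4 arrays compared, 11 members were called higher, and with only the 6 untreated arrays 13. Without the dim array of treated wild-type culture a, which enters the estimate of the spread, 9 were. Over all probes, 176, 214 and 101 were called higher in these fits in the same order, against 101 in the main fit. Global loess of the scanner intensities left none.

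No list of amino acid permease genes was tested, and 3 called ones are given as single genes. AGP1, which takes up many amino acids, had 0.89 and 0.91 in Mot1-FRB, 0.22 and 0.11 in NCB2-FRB and 0.04 and -0.01 in wild type. The Mot1-FRB arrays agreed closely and lay above the others (difference 0.74 ± 0.07, adjusted p = 0.00098). DIP5, for glutamate and aspartate, was higher by 0.45 ± 0.09 (adjusted p = 0.0394), and TAT1, for valine, leucine and tyrosine, by 0.42 ± 0.08 (adjusted p = 0.0272). The transcription factor gene GCN4 was higher by 0.29 ± 0.06 (adjusted p = 0.0350), on a probe saturated on 1 array. The list of amino acid biosynthesis genes that Gcn4 controls has 46 measured members and includes GCN4 itself. GCN4 was the 1 called member (2.17%, against 1.58% of all probes called higher), so none of the genes it controls was called there. The median of that list was -0.0002.

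Sulfate assimilation and methionine genes were higher in 5 of 28 measured cases (17.9%, against 1.58% of all probes) and lower in none (0.329% of all probes), with a median of 0.13. MET3 (ATP sulfurylase) had 0.46 and 0.60 in Mot1-FRB, 0.00 and 0.02 in NCB2-FRB and -0.07 and 0.03 in wild type, a difference of 0.51 ± 0.09 (adjusted p = 0.0197). MET14 (APS kinase), the next enzyme of the pathway, had 0.67 and 0.73 in Mot1-FRB, 0.10 and 0.29 in NCB2-FRB and 0.16 and 0.12 in wild type, a difference of 0.50 ± 0.07 (adjusted p = 0.0063). In both genes the Mot1-FRB arrays were above the other 4. The methionine permease gene MUP1 (0.39 ± 0.08, adjusted p = 0.0300), STR3 (cystathionine beta-lyase, 0.36 ± 0.08, adjusted p = 0.0435) and the sulfite reductase gene MET5 (0.29 ± 0.06, adjusted p = 0.0386) were the other 3. Without untreated Mot1-FRB culture b none of the list was called, without any other 1 of the 4 arrays 1 was, and external control centring left 2.

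**Figure D4:**
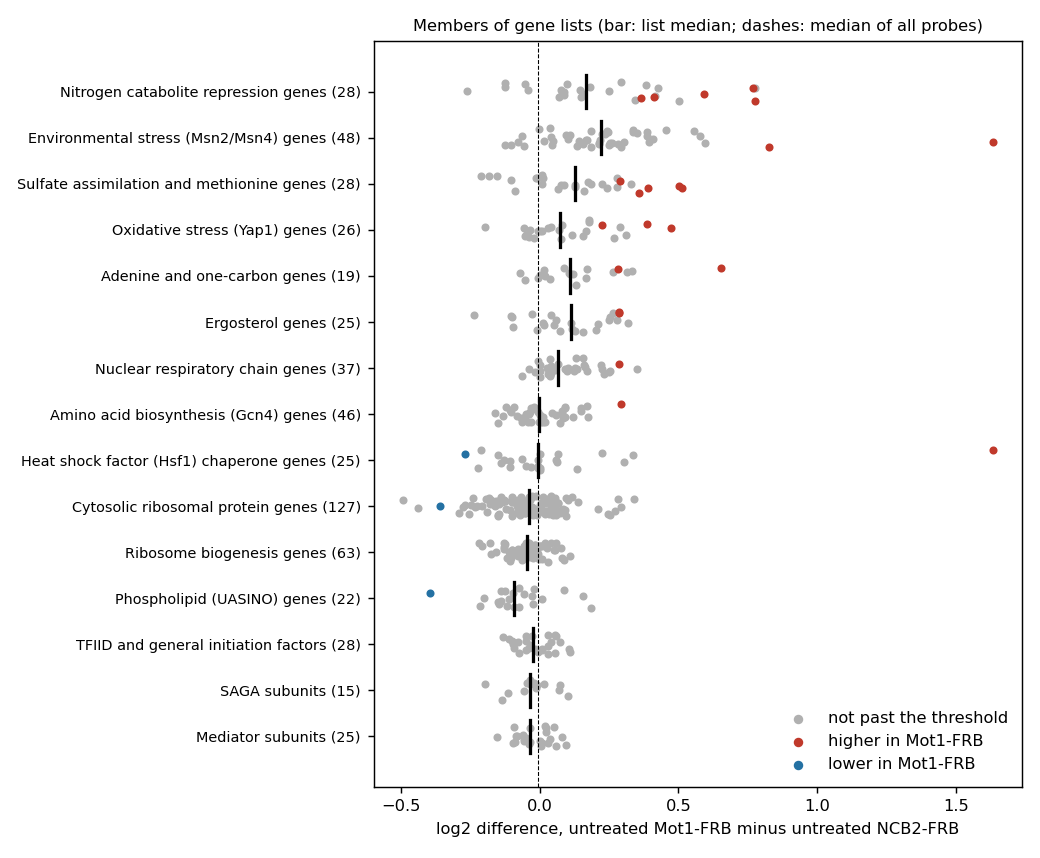
Difference Mot1-FRB minus NCB2-FRB (log2) of every measured member of 15 gene lists, with the number measured in brackets, the list median as a bar and the median of all probes as a dashed line. The nitrogen, stress and sulfate lists have medians of 0.17, 0.22 and 0.13. The initiation factor, SAGA and Mediator lists have no called member, where 1.91% of all probes were called.

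BNA4 (kynurenine 3-monooxygenase, in NAD synthesis from tryptophan) had 0.84 and 0.75 in Mot1-FRB, -0.06 and -0.13 in NCB2-FRB and -0.15 and -0.20 in wild type. BNA4 was 0.89 ± 0.06 higher in Mot1-FRB (1.85-fold, adjusted p = 4.9e-05). BNA1, a later enzyme of the same pathway, had -0.74 and -0.72 in Mot1-FRB, -0.43 and -0.32 in NCB2-FRB and -0.18 and -0.24 in wild type, and was lower (-0.36 ± 0.05, adjusted p = 0.0075). The pair of enzymes thus differed in opposite directions.

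SNO1 and SNZ1, both among the 15 lowest genes, are neighbours that encode the pyridoxal phosphate synthase subunits. SNO1 had -1.01 and -0.98 in Mot1-FRB, -0.15 and -0.45 in NCB2-FRB and -0.13 and -0.30 in wild type. SNZ1 had -0.80 and -0.79 in Mot1-FRB, -0.13 and -0.36 in NCB2-FRB and -0.37 and -0.40 in wild type. Both were lowest on the Mot1-FRB arrays, with differences of -0.69 ± 0.13 for SNO1 (adjusted p = 0.0246) and -0.55 ± 0.10 for SNZ1 (adjusted p = 0.0276). The alanine transaminase paralogues split: ALT1 was higher (0.47 ± 0.07, adjusted p = 0.0062) and ALT2 lower (-0.42 ± 0.05, adjusted p = 0.0017) in Mot1-FRB.

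The list of adenine and one-carbon genes had 2 higher members of 19 (10.5%, against 1.58% of all probes), with a median of 0.11. GCV1 (a subunit of glycine decarboxylase) had 0.83 and 0.73 in Mot1-FRB, 0.20 and 0.06 in NCB2-FRB and 0.17 and 0.10 in wild type (difference 0.65 ± 0.08, adjusted p = 0.0040). MTD1, a methylenetetrahydrofolate dehydrogenase, was higher by 0.28 ± 0.05 (adjusted p = 0.0291). Redox genes controlled by Yap1 had 3 higher members of 26 (11.5%, against 1.58% of all probes) and none lower: GRX2 (glutaredoxin, 0.47 ± 0.08, adjusted p = 0.0148), GPX2 (glutathione peroxidase, 0.39 ± 0.06, adjusted p = 0.0075) and the drug exporter gene ATR1 (0.22 ± 0.05, adjusted p = 0.0460).

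WSC4 was the 1 called gene of 21 on the cell wall integrity list (1.58% of all probes were higher). WSC4, of the WSC family of surface sensors, had 0.91 and 1.00 in Mot1-FRB, 0.08 and 0.06 in NCB2-FRB and -0.14 and -0.12 in wild type (difference 0.89 ± 0.09, adjusted p = 0.0013). PRY1, a secreted sterol-binding protein gene, had 1.33 and 1.36 in Mot1-FRB, 0.62 and 0.30 in NCB2-FRB and -0.07 and 0.13 in wild type. In both genes the arrays of both tagged strains lay above wild type, and PRY1 was higher in Mot1-FRB (0.88 ± 0.17, adjusted p = 0.0270). RPI1, known as a regulator that affects cell wall stability, had 0.97 and 1.06 in Mot1-FRB, 0.37 and 0.19 in NCB2-FRB and -0.14 and -0.02 in wild type (difference 0.73 ± 0.09, adjusted p = 0.0025). KNH1, related to cell wall beta-glucan synthesis, was lower in Mot1-FRB (-0.37 ± 0.06, adjusted p = 0.0145).

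YIR042C, an uncharacterised gene, had the second highest difference. It had 0.97 and 0.89 in Mot1-FRB, -0.39 and -0.36 in NCB2-FRB and -0.88 and -0.34 in wild type, a difference of 1.31 ± 0.15 (2.48-fold, adjusted p = 0.0021). The wild-type cultures were further apart than those of either tagged strain. YLR112W, a gene without a known role, was higher by 0.81 ± 0.07 (adjusted p = 0.00052), and HUG1, a DNA damage-induced inhibitor of ribonucleotide reductase, by 0.63 ± 0.07 (adjusted p = 0.0012).

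Among the lower genes, INO2 encodes an activator of phospholipid synthesis genes. INO2 had -0.06 and -0.06 in Mot1-FRB, 0.28 and 0.38 in NCB2-FRB and 0.37 and 0.29 in wild type (difference -0.39 ± 0.05, adjusted p = 0.0062). It was the only called one of the 22 measured phospholipid genes (4.5% lower through this 1 gene, against 0.329% of all probes). The list had a median of -0.09, with 4 members above 0. ENB1, a siderophore transporter gene, was lower (-0.47 ± 0.06, adjusted p = 0.0049), as were GDS1 (-0.52 ± 0.08, adjusted p = 0.0093) and KEL2, a kelch-repeat protein gene (-0.36 ± 0.05, adjusted p = 0.0040). YDL241W (-0.43 ± 0.08), YHR214W (-0.40 ± 0.05) and PAD1, phenylacrylic acid decarboxylase (-0.28 ± 0.06), completed the 15 lowest together with RPS9B.

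Ribosome genes had few calls, as did all probes, of which 1.91% were called. RPS9B was the 1 called gene of 127 measured cytosolic ribosomal protein genes, with -0.43 and -0.47 in Mot1-FRB, -0.07 and -0.11 in NCB2-FRB and -0.14 and -0.04 in wild type (difference -0.36 ± 0.06, adjusted p = 0.0197). Its probe was saturated on 2 arrays, its paralogue RPS9A is close in sequence, and its call was lost with external control centring. The list's median was -0.04, which turned to 0.0031 after print-tip loess and 0.02 after median centring. None of 63 ribosome biogenesis genes was called, with a median of -0.05.

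Mating-type genes were called in 3 of 7 measured cases on the list of alpha-specific genes and HO, against 1.91% of all probes. HO, the endonuclease of mating-type switching, had -0.54 and -0.54 in Mot1-FRB, 0.06 and -0.03 in NCB2-FRB and 0.12 and 0.05 in wild type. It was lower in Mot1-FRB on both arrays (difference -0.55 ± 0.06, adjusted p = 0.0013). STE3, the receptor for a-factor, was higher (0.46 ± 0.07, adjusted p = 0.0068), as was MATALPHA2, the repressor of a-specific genes (0.26 ± 0.05, adjusted p = 0.0319). The alpha-factor gene MF(ALPHA)1 had 0.28 and 0.01 in Mot1-FRB, 0.60 and 0.40 in NCB2-FRB and 0.43 and 0.15 in wild type, and its difference of -0.35 ± 0.26 was not called (adjusted p = 0.65) and turned positive in 3 normalizations of the scanner intensities. None of the 7 a-specific genes was called, and their median was -0.02. Histone genes had 1 higher member of 11 (9.09%, against 1.58% of all probes), the histone H4 gene HHF1 (0.35 ± 0.05, adjusted p = 0.0063), with 10 of 11 above 0.

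The strains were also compared in 4 other cultures, grown with rapamycin at 1 µg/ml for 60 min. There 1962 probes differed between Mot1-FRB and NCB2-FRB (30.7%). Rapamycin acts on tagged Mot1 in 1 strain and on tagged NC2β in the other. The treated difference thus holds responses to both besides any untreated strain difference, and is not a repeat of the untreated comparison. Whether treated and untreated cultures came from the same colonies is not given in the sources used here. Of the 122 genes, 105 had the same sign in the treated cultures and 84 were called there in the same direction, which is 68.9% of the 122 and 4.28% of the 1962. The background is 16.8% of all probes called higher and 13.9% called lower with rapamycin. Both contrasts use the same estimate of spread for each gene, so the calls with rapamycin are not independent of the untreated ones. By direction, 73 of the 101 higher genes were called higher again, and 11 of the 21 lower genes were called lower again. With rapamycin, NCB2 differed by 1.19 ± 0.05, MOT1 by 0.51 ± 0.07, HSP26 by 1.70 ± 0.25, YIR042C by 1.38 ± 0.15 and YLR112W by 0.80 ± 0.07. The changes of these differences were 0.11, -0.07, 0.06, 0.07 and -0.02 in the same order, and none was called.

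The test of the change itself called 542 probes (8.48%), 3.8% with a shift toward Mot1-FRB and 4.68% with a shift toward NCB2-FRB. Of the 122 genes, 25 were among them. The change is measured from the same untreated difference by which the 122 were called. This count is thus not independent of those calls, and large untreated differences are favoured to shrink. HO reversed: its difference was 0.82 ± 0.06 with rapamycin, and the change was 1.37 ± 0.08 (adjusted p = 5.3e-05). MEP3 (-0.25 ± 0.05), ATR1 (-0.45 ± 0.05), MSA2, a gene linked to G1 transcription (-0.21 ± 0.06), and 2 probes without a symbol were the other genes called in opposite directions, higher in Mot1-FRB without rapamycin and lower with it. PUT1 had 0.01 ± 0.10 with rapamycin, a change of -0.77 ± 0.14 (adjusted p = 0.0118). BDF2 kept a smaller difference of 0.18 ± 0.06, a change of -0.43 ± 0.09 (adjusted p = 0.0176). CAR2 (0.53) and CAR1 (0.50) stayed higher with rapamycin, and their changes were not called.

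**Figure D5:**
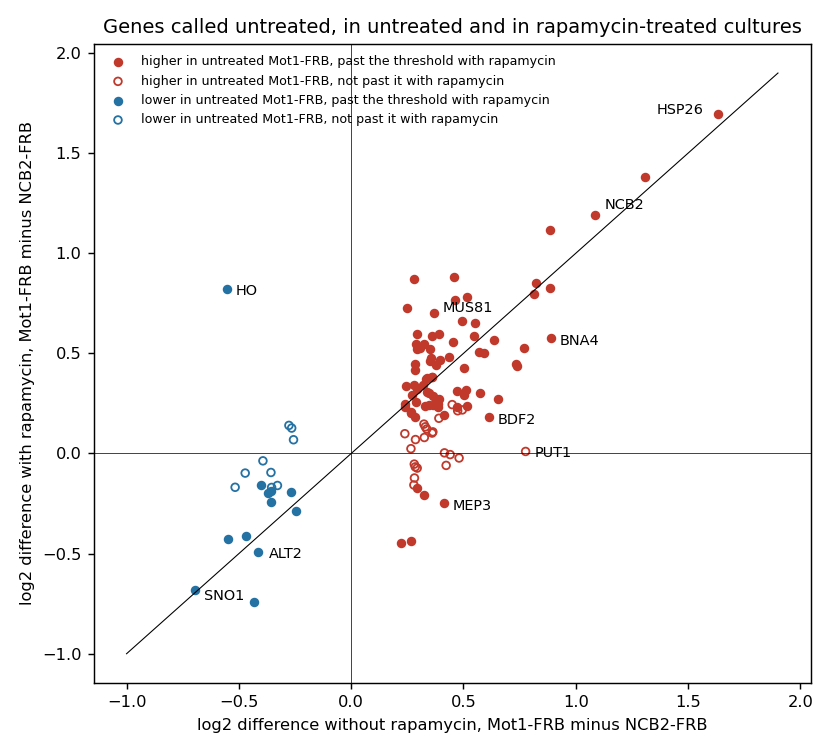
Difference Mot1-FRB minus NCB2-FRB (log2) without rapamycin (horizontal axis) and with rapamycin (vertical axis) for the 122 genes, 2 arrays per group, with the line of equality; filled points passed the threshold with rapamycin too. HSP26 and NCB2 lie near the line, PUT1 near 0 on the vertical axis, and HO changed sign.

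Among the changes past the threshold, the 5 highest and 5 lowest were, apart from HO, in genes not called before rapamycin. HEM13, an oxygen-regulated heme synthesis gene, had a difference of -0.11 ± 0.06 untreated and 1.12 ± 0.06 with rapamycin, a change of 1.23 ± 0.08 (adjusted p = 5.3e-05). The alpha-specific genes MF(ALPHA)2 (alpha-factor) and SAG1 (alpha-agglutinin) had 0.13 and 0.03 untreated and 1.48 and 1.32 with rapamycin. The inositol synthesis gene INO1 had -0.20 ± 0.20 untreated and 0.95 ± 0.20 with rapamycin. At the other end, the ribosomal protein genes RPL6B and RPS1A (paralogues RPL6A and RPS1B are close in sequence, and both probes were saturated on 2 arrays), the uracil permease gene FUR4, DSE3 and BUD9 had -0.09 to 0.28 untreated and -0.97 to -0.56 with rapamycin.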

How the data were processed

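Per the labels' protocols, arrays were scanned on an Agilent G2565BA scanner and read with Imagene, and the authors normalized the deposited intensity values by print-tip LOESS (span 0.4, gene probes, no background subtraction) and corrected gene-specific dye bias. The deposited value table holds log2(culture/reference) of these intensities, which was checked against them (largest difference 4.99e-06). The 2 spots of each of 6388 gene probes were averaged. The scanner intensity columns, not normalized per the file headers, served the alternatives, without a correction of gene-specific dye bias.

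Differences were tested in R 4.3.3 with limma 3.58.1, with 1 mean for each of 6 groups, all 12 arrays, no block and Benjamini-Hochberg adjustment (threshold 0.05). The fit has 6 residual and 4.25 prior degrees of freedom and was tested on simulated data. Figures used Python 3.11.15, matplotlib 3.10.9 and pandas 2.3.3. The shared letter is also the dye orientation. Deviations of same-letter arrays correlated across probes at 0.0109 to 0.55, over 0.1 in 9 of 15 pairs of groups. Tests measure the spread between the 2 arrays of a group, pooled over the 6 groups. Those 2 arrays differ in both culture and dye.

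Of the probes, 5326 had 1 symbol and 1062 had none; 5266 symbols matched the reference gene table directly, 58 by synonym and 2 not at all. Probes brighter than percentile 95 of the blanks counted as above them, and those over 32768 as saturated. Members and the 38 lists were chosen with earlier results of these data known. Named genes are MOT1, NCB2, BUR6 and SPT15, the 15 highest and 15 lowest called genes with a symbol, up to 4 members per list, 3 neighbours on each side of MOT1 and NCB2, and the 5 highest and 5 lowest of the interaction. BDF1, MUS81, YPL088W, TAT1, DIP5, MEP3, UGA4, ALT1, MET5, ATR1, MSA2, YGP1, TAH1, YLR225C, CYB5, MCR1, HSP31, GOR1 and IZH4 were chosen after their values were seen.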

Additional observations from a re-analysis of the deposited data

Results flagged for a closer look

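In 24 of the genes named here, the difference between Mot1-FRB and NCB2-FRB changed between untreated and rapamycin-treated cultures by limma's test of that change (adjusted p under 0.05, 2 arrays per group). It shifted upward with rapamycin by 1.37 in HO, 1.35 in MF(ALPHA)2, 1.29 in SAG1, 1.23 in HEM13 and 1.15 in INO1. Smaller upward shifts were 0.42 in PAD1, 0.36 in INO2 and 0.33 in MUS81.

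It shifted downward by -0.99 in RPL6B, -0.88 in RPS1A, -0.80 in FUR4, -0.79 in DSE3 and -0.79 in BUD9. Among genes of amino acid and nitrogen use and of transport, the shifts were -0.77 in PUT1, -0.67 in ATR1, -0.66 in MEP3, -0.48 in TAT1 and -0.37 in GCN4. The remaining downward shifts were -0.53 in MSA2, -0.43 in BDF2, -0.35 in ERG2, -0.33 in MTD1, -0.31 in BNA4 and -0.27 in YLR225C. With 2 arrays per group, no test of single outlying arrays was made. Some of these genes were named for their untreated difference and others for the change itself. Their number is therefore not a rate among unselected genes.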

How the results depend on the processing

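The counts of higher and lower untreated genes were 101 and 21. They were 10 and 1 with scanner intensities after global loess, 39 and 5 after print-tip loess, 9 and 0 without background subtraction and 1 and 0 with median centring. They were 46 (higher) with external control centring, 176 and 46 with only the 4 arrays, 214 and 62 with only the 6 untreated arrays, 220 and 63 with array weights, and 16 and 1 at a minimum of 1.5-fold. Leaving out 1 array of a tagged strain gave 24 to 150 higher and 3 to 28 lower, 1216 to 1825 for the treated strains, 131 to 495 changes with rapamycin and 81.63% to 96.43% with wild type nearer NCB2-FRB. Without the dim array of treated wild type, 1888 treated genes were called, and 97.54% had wild type nearer NCB2-FRB. With the letter as replicate block, 145 were higher and 45 lower, 826 changes with rapamycin were called, and all 122 genes stayed called. The counts for treated strains and for changes with rapamycin (1962 and 542) were 784 and 32 after global loess, 1180 and 143 after print-tip loess, 714 and 8 without background subtraction, 1 and 0 with median centring, 1256 and 135 with external control centring and 92 and 56 at 1.5-fold. The share with wild type nearer NCB2-FRB was 100% after global loess with or without background subtraction and 0% of 1 gene with median centring. Of single uncalled genes, BUR6 turned to -0.080 with median centring. RPS1A turned to 0.042 after global loess, 0.043 without background subtraction and 0.062 with median centring. Under the same 3 settings MF(ALPHA)1 turned to 0.081, 0.082 and 0.099. Leaving out 1 array gave -0.21 to 0.021 for RPS1A, -0.088 to 0.15 for SAG1 (-0.017 without untreated Mot1-FRB culture b) and -0.011 to 0.28 for MF(ALPHA)2. The causes were not tested. A search of promoters for TATA boxes was not run.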

Other observations

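Sterol genes had 2 higher members of 25 (8%, against 1.58% of all probes) in untreated Mot1-FRB, ERG5 (0.29 ± 0.05, adjusted p = 0.0273) and ERG2 (0.29 ± 0.06, adjusted p = 0.0423), with a list median of 0.11. CYB5, cytochrome b5, which passes electrons to sterol enzymes, had 0.67 and 0.61 in Mot1-FRB, 0.14 and 0.23 in NCB2-FRB and 0.33 and 0.13 in wild type (difference 0.45 ± 0.07, adjusted p = 0.0068). MCR1, a mitochondrial cytochrome b5 reductase, was also higher (0.47 ± 0.08, adjusted p = 0.0148). The glyoxylate reductase gene GOR1 (0.55 ± 0.09, adjusted p = 0.0116) and HSP31, which breaks down methylglyoxal (0.55 ± 0.10, adjusted p = 0.0268), were higher as well.

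IZH4, a membrane protein gene of zinc homeostasis, had -2.14 and -2.20 in untreated Mot1-FRB, -1.93 and 0.41 in untreated NCB2-FRB and -0.59 and -1.14 in wild type. Its difference of -1.41 ± 0.61 was the lowest of all probes but was not called (adjusted p = 0.32), and the 2 NCB2-FRB cultures lay further apart than the strain means.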
